A study of Mus musculus with 20 samples.

Results

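The endothelial and angiogenesis genes are 35 symbols of blood and lymphatic vessels, taken by name: VEGF ligands and receptors, angiopoietins and Tie receptors, junction and surface proteins of the endothelium, its transcription factors and 2 lymphatic markers. All 35 symbols were present among 43472 counted genes, and 35 of 35 passed the filter on low values that left 15261 genes for testing. They were measured by bulk RNA sequencing of the ventral prostate of orchidectomised male mice, whose testicular androgen has been removed. The 4 groups of 5 libraries were wild type C57BL/6J males given vehicle (WT vehicle), wild type males given testosterone (WT testosterone), ARNoC/Y males given vehicle (ARNoC vehicle) and ARNoC/Y males given testosterone (ARNoC testosterone), each for 4 days. ARNoC/Y males carry an androgen receptor allele, known as a line in which contact between the amino and carboxyl ends of the receptor is lost. The labels give no cell type for the altered receptor, no age and no word on whether each library is its own animal, so p-values reflect only how far these libraries spread.

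Endothelial cells line vessels and grow new ones when VEGF ligands, made mostly by neighbouring epithelial and stromal cells, bind receptors on their surface. Angiopoietin ligands act through the receptor Tie2 (Tek) on the same cells: Angpt1 steadies vessels, and Angpt2, made largely by endothelium itself, loosens them and favours sprouting together with VEGF. In the rodent prostate, vessels regress after castration and regrow when androgen returns, and Vegfa is known there as an androgen-responsive gene.

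Testosterone raised 2 of the 35 genes in both genotypes, Vegfa and Angpt2, where 20.4% of all tested genes rose in WT and 19.4% in ARNoC. In WT 9 other genes (25.7%) fell, where 18.8% of all tested genes did. Among them were the VEGF co-receptor gene Nrp1, the junction gene Pecam1 and the ETS transcription factor genes Erg, Fli1 and Ets1. In ARNoC 0 fell, but the responses of the genotypes were not shown to differ for any of the 35. Angpt2 was also lower in ARNoC than in WT with either treatment. Values are normalized counts, that is reads of a gene corrected for library size by the deposited size factors. Log2 changes, standard errors (SE) and p-values come from the quasi-likelihood test of edgeR, adjusted over all tested genes by the Benjamini-Hochberg method, and a gene is called at an adjusted p below 0.05.

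The upstream sequences of Vegfa, which rose, and of 3 genes that fell together in WT, Robo4, Egfl7 and Eng, are shown as examples of start regions. Each is the 250 bases before a RefSeq transcription start (build GRCm38.p6), read 5′ to 3′ on the strand of the gene. The GENCODE models of Robo4 and Egfl7 begin further upstream than these starts. For a gene with several starts, such as Vegfa and Egfl7, the start with most matches to the marked letters of that gene was taken. Other starts of these genes held fewer matches, so the marked letters do not describe all their starts. They lie at chr17:46032378-46032627 (minus strand) for Vegfa, chr9:37401722-37401971 (plus) for Robo4, chr2:26580833-26581082 (plus) for Egfl7 and chr2:32646345-32646594 (plus) for Eng. Capitals mark GGGCGG in Vegfa and AGGAAG, or its reverse complement CTTCCT, in the others. Because different letters were marked, the marks are not a contrast between Vegfa and the others. Another start of Egfl7, not shown, also held GGGCGG.
Vegfa: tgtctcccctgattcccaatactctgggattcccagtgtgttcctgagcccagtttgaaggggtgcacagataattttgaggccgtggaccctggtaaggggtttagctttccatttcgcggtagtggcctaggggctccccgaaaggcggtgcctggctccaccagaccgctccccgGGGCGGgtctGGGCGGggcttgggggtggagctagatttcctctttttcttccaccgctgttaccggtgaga
Robo4: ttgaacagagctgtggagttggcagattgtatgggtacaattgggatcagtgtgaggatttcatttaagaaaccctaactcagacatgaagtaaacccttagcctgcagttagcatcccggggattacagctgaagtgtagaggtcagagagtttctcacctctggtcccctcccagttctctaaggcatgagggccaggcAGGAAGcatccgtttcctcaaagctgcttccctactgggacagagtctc
Egfl7: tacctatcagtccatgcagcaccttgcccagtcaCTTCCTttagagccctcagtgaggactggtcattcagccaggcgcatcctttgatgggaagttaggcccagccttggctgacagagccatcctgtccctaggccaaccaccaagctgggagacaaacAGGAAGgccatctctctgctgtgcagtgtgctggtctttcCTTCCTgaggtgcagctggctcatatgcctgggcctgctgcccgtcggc
Eng: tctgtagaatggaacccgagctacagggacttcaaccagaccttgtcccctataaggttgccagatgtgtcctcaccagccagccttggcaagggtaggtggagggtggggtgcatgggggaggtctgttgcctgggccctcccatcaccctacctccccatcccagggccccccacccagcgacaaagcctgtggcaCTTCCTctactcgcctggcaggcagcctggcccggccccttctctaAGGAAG

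GGGCGG is the core letters of a GC box, a common promoter element, and AGGAAG holds the core letters that ETS factors can bind. Both were picked after values were known and searched on both strands of the full windows, which run from 250 bases before to 50 bases after a start. Of the 35 genes, 19 had a window, 25 windows in all, among 32851 windows of the RefSeq table. AGGAAG was in 35.4% of all windows, in 10 of the 19 genes, and in 5 of the 5 genes that fell in WT and had a window (Nrp1, Robo4, Eng, Egfl7 and Erg). GGGCGG was in 35.7% of all windows, in 13 of the 19 genes and in 3 of the same 5. By window, AGGAAG was in 11 and GGGCGG in 15 of the 25. A gene was counted if any of its windows held the letters, so counts by gene and shares of windows are unlike measures. The other genes that fell, Pecam1, Mmrn2, Fli1 and Ets1, had no window. Because AGGAAG was picked with the values known, its count among genes that fell is a description, and a link to the falls was not tested. Letters that had been listed for search were found in 0 of the 25 windows: CCGGAAGT (ETS, 3.89% of all windows), ACAATGG (SOX, 3.66%), TACGTG (hypoxia element, 3.23%) and AGAACA followed after 3 bases by TGTTCT (androgen and glucocorticoid receptor element, 0.00913%). These letters are rare among all windows, so finding them in 0 of 25 says little about the 35 genes. Angpt2 had no window. A match describes letters in a window and no binding was measured.

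Vegfa encodes the main ligand of vessel growth (chromosome 17, 46016993 to 46032369 in mm10, minus strand). In WT vehicle libraries 1 to 5 it stood at 417, 549.9, 518, 486 and 553 normalized counts, and in WT testosterone libraries at 1110.2, 1027, 1187, 1159 and 1068. Each testosterone library was well above each vehicle library, and the groups did not overlap. In ARNoC the vehicle libraries held 405, 459, 345, 274 and 433 and the testosterone libraries 872, 997, 949, 1079 and 914. These groups were as clearly apart, with library 4 the lowest of the vehicle group. Vegfa rose 2.21-fold in WT (log2 1.14 ± 0.11 SE, adjusted p 1.26e-07 by edgeR) and 2.52-fold in ARNoC (log2 1.33 ± 0.11, adjusted p 1.88e-08).

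Angpt2 (chromosome 8, 18690263 to 18741562, minus strand) encodes the Tie2 ligand that loosens vessels. The WT vehicle libraries held 101, 87.8, 99.4, 165 and 126 normalized counts and the WT testosterone libraries 368, 259, 219, 283 and 264. The groups did not overlap, and WT testosterone library 1 was the highest of all 20. The ARNoC vehicle libraries held 51.8, 58.9, 45.6, 69.0 and 37.0 and the ARNoC testosterone libraries 147, 107, 99.5, 157 and 146. All ARNoC vehicle libraries lay below all WT vehicle libraries, and the ARNoC testosterone libraries covered much the same range as WT with vehicle. Angpt2 rose 2.42-fold in WT (log2 1.27 ± 0.19, adjusted p 2.37e-05 by edgeR) and 2.52-fold in ARNoC (log2 1.33 ± 0.20, adjusted p 2.21e-05). Angpt2 lies within Mcph1 on the opposite strand, with 0 exon bases shared, and the strand setting of the counting is not given in the sources used here. Mcph1, a gene of DNA repair and brain size, rose 1.27-fold in WT, from 144 ± 26.5 (SD, n = 5) to 181 ± 15.2, which is a smaller change than that of Angpt2, and its part in the value of Angpt2 was not tested.

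Angpt2 was 2.20-fold lower in ARNoC than in WT with vehicle, 52.5 ± 12.3 (SD, n = 5) against 116 ± 30.7 (log2 -1.14 ± 0.20, adjusted p 0.00828 by edgeR). With testosterone it was 2.11-fold lower, 131 ± 26.2 against 279 ± 55.2 (log2 -1.08 ± 0.19, adjusted p 0.00373). In both cases the 5 ARNoC libraries were below the 5 WT libraries. It was the 1 gene of the 35 called lower in each of these comparisons, where 0.151% of all tested genes were called lower with vehicle and 1.01% with testosterone. It was also the 1 gene whose groups did not overlap, where 0.806% of tested genes were lower without overlap with vehicle and 2.33% with testosterone. The vehicle call was lost when the vehicle groups were fitted alone (log2 -1.14, adjusted p 0.0833), and also without WT vehicle libraries 2 and 5, WT testosterone library 2 and ARNoC vehicle library 5 (log2 -1.11, adjusted p 0.0705). The response of Angpt2 to testosterone differed between genotypes by a log2 of 0.06 (95% interval -0.49 to 0.61, adjusted p 0.963 by edgeR), and that of Vegfa by 0.19 (-0.14 to 0.51, adjusted p 0.774).

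**Figure D1:**
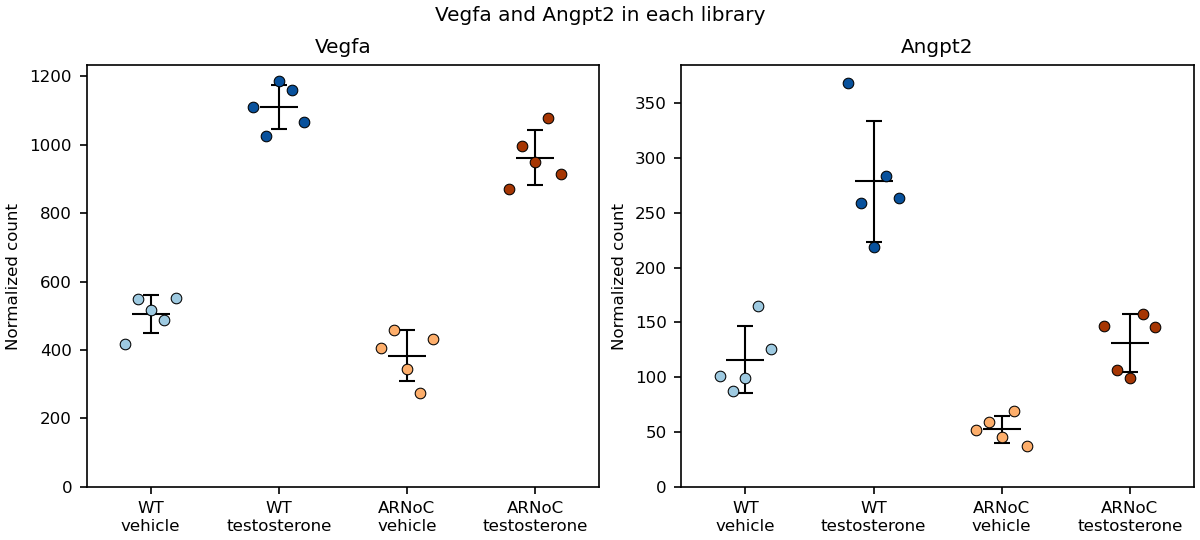
Normalized counts of Vegfa and Angpt2 in each of 20 libraries by group, with the group mean and SD (n = 5). Testosterone libraries lie above vehicle libraries of the same genotype for both genes, and ARNoC libraries lie below WT libraries of the same treatment for Angpt2.

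The other VEGF ligand genes gave no call in either response. Vegfb, a ligand of Flt1 tied to metabolism and heart muscle, was at 250 ± 24.0 in WT vehicle and 232 ± 20.5 in WT testosterone (log2 -0.09, 95% interval -0.31 to 0.13). Vegfc, the main ligand of the lymphatic receptor Flt4, was at 23.0 ± 10.5 and 15.1 ± 6.71 (log2 -0.59, -1.38 to 0.19). Angpt1, the vessel-steadying Tie2 ligand, was at 76.8 ± 27.6 and 71.6 ± 17.9 (log2 -0.09, -0.66 to 0.49). In ARNoC the log2 change was -0.16 for Vegfb (-0.38 to 0.06), 0.24 for Vegfc (-0.54 to 1.02) and 0.03 for Angpt1 (-0.55 to 0.60). Per kilobase of exon, Vegfa had the highest mean level of the 35 genes over 20 libraries, 173 normalized counts per kilobase, followed by Vegfb at 153, Cd34 at 74.5 and Eng at 63.7. Angpt2 was at 39.2, Angpt1 at 14.1, Vegfc at 7.03 and Prox1 lowest at 1.17.

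In WT, 2 of the 35 genes were called higher with testosterone, where 20.4% of tested genes were, and 9 were called lower, where 18.8% were. The share of genes called lower, 25.7%, was near the background. The counts by role given below for WT stand against the same shares of all genes and rest on few genes each. The median log2 change of the 35 genes was -0.93, against -0.02 over all tested genes, and 33 of 35 had a log2 below 0, against 52.4% of all. The 2 genes that rose did so with no overlap of the groups, where 15.2% of all genes were higher without overlap. For the genes that fell, the libraries of the groups overlapped in each case: 0 of 35 were lower without overlap, where 11.9% of all genes were. In bulk tissue, fewer endothelial cells and less RNA per cell cannot be told apart.

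The number of falls depended on single libraries. It was 4 without WT vehicle library 5, the highest of its group for all 9 genes, and 5 without WT testosterone library 1 or without library 2 of that group, where 16.2%, 18.8% and 18.9% of all genes were called lower. It was 17 without WT vehicle library 2, 16 without WT vehicle library 3 and 18 without WT testosterone library 5, where 19.1%, 17.2% and 21.2% of all genes were. By tool, DESeq2 called 14 lower, where it called 20.4% of all genes lower, adding Tie1, Cdh5, Emcn, Plvap and Nos3. In contrast, limma-voom called 6 lower, where 17% of all genes were, without Nrp1, Pecam1, Eng and Mmrn2 and with Prox1. Without both WT vehicle library 2 and ARNoC vehicle library 5, which had the lowest fibroblast and myeloid marker sums of their groups, 24 of 35 genes were called lower, where 19.7% of all genes were. Without WT vehicle library 5 and WT testosterone library 2, 2 were called lower, Robo4 and Ets1, where 16.3% of all genes were, and the median of the 35 genes was -0.46. Vegfa and Angpt2 were called higher in each of these fits.

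**Figure D2:**
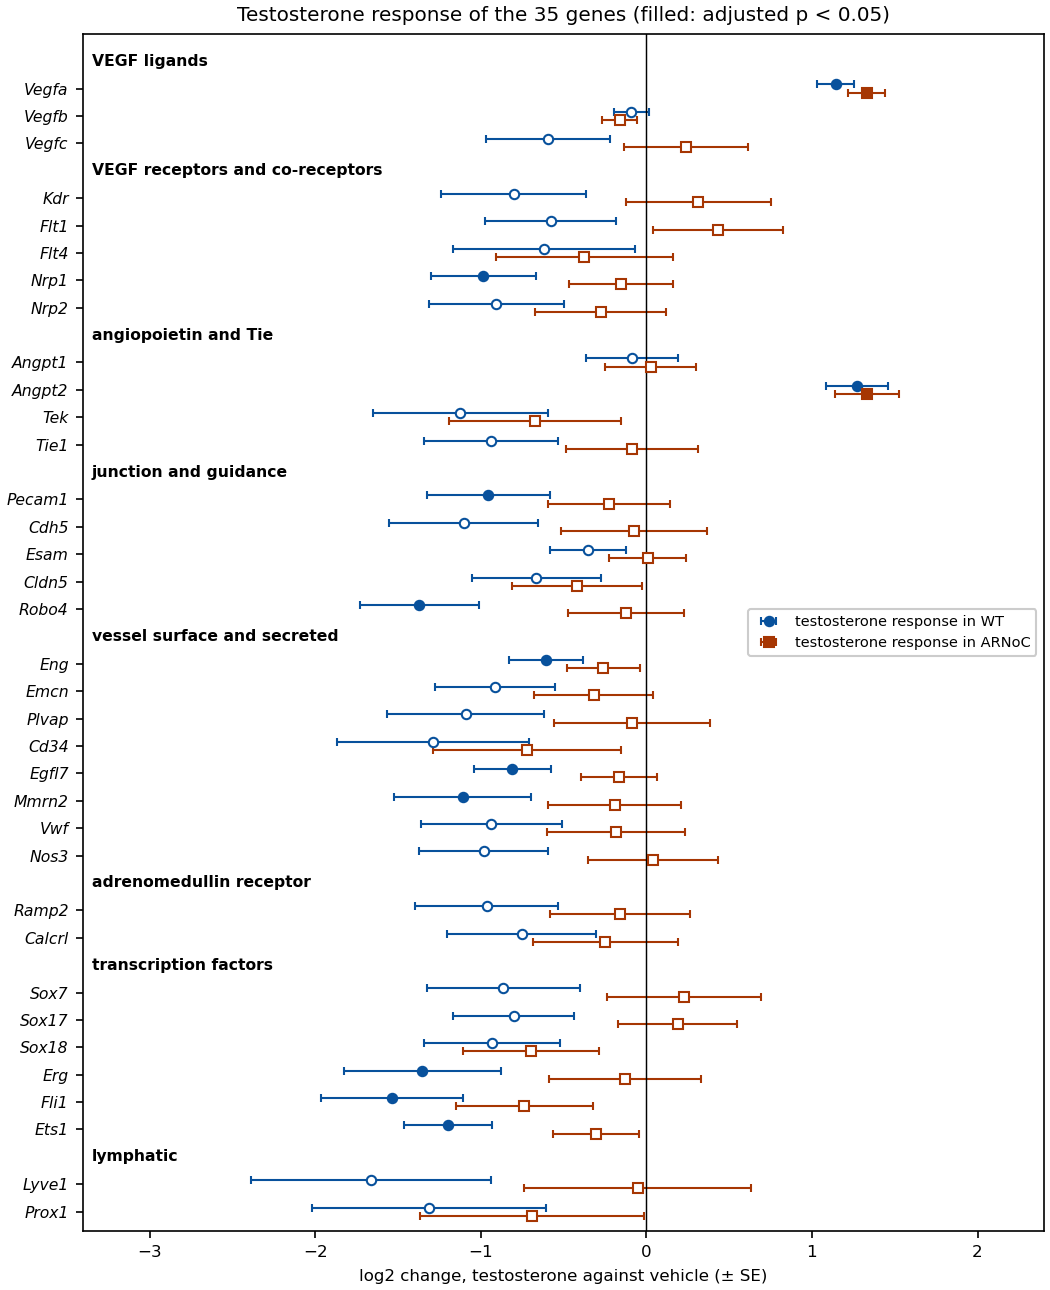
Log2 change with testosterone and its SE for each of the 35 genes, in order of role, in WT (circles) and ARNoC (squares); filled symbols are called at an adjusted p below 0.05. Vegfa and Angpt2 stand to the right of 0 in both genotypes, and 33 of 35 WT changes stand to the left of 0.

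Among VEGF receptor genes, Nrp1 was the 1 of 5 called lower in WT, and 0 of 5 were called in ARNoC. Nrp1 (chromosome 8, 128358604 to 128503363) encodes neuropilin 1, which presents VEGF to Kdr and also binds semaphorins. The WT vehicle libraries held 539, 285, 281, 355 and 855 normalized counts and the testosterone libraries 211, 147, 185, 284 and 325. Vehicle library 5 was far above the others, and vehicle libraries 2 and 3 lay within the testosterone range. The ARNoC vehicle libraries held 451, 424, 400.5, 379.7 and 169 and the ARNoC testosterone libraries 302, 248, 520.0, 284 and 279. Vehicle library 5 was low and testosterone library 3 high there. Nrp1 fell 1.98-fold in WT (log2 -0.98 ± 0.32, adjusted p 0.0189 by edgeR), and without WT vehicle library 5 the log2 was -0.64 (adjusted p 0.0912).

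Kdr (chromosome 5, 75932827 to 75978458) encodes VEGF receptor 2, the main signalling receptor of endothelial growth, and did not pass the test. It was at 192, 61.5, 208, 131 and 241 in the WT vehicle libraries and at 69.3, 23.6, 88.4, 141 and 148 in the WT testosterone libraries. In ARNoC it was at 99.9, 92.5, 82.1, 146 and 23.2 with vehicle and at 95.7, 63.2, 143, 122 and 122 with testosterone. The groups overlapped in both genotypes. The log2 change was -0.80 in WT (95% interval -1.72 to 0.11) and 0.31 in ARNoC (-0.60 to 1.23).

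Flt1 (chromosome 5, 147561604 to 147726011) encodes VEGF receptor 1, which binds VEGF tightly and in its soluble form acts as a decoy. WT vehicle libraries held 145, 58.2, 33.1, 143 and 180.0 normalized counts and WT testosterone libraries 44.7, 28.3, 74.4, 119 and 102. ARNoC vehicle libraries held 64.7, 92.5, 66.1, 69.0 and 37.0 and ARNoC testosterone libraries 88.2, 71.4, 118, 85.8 and 79.5. The spread in WT vehicle covered nearly all WT libraries, and the ARNoC testosterone libraries were mostly at the upper end of their pair. The log2 change was -0.58 in WT (-1.40 to 0.25) and 0.43 in ARNoC (-0.39 to 1.25), neither called. Flt4, the VEGFC receptor, and Nrp2, a neuropilin of veins and lymphatics, had log2 changes of -0.62 and -0.91 in WT with adjusted p of 0.395 and 0.0840 by edgeR.

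Tek (chromosome 4, 94739289 to 94874976) encodes Tie2, the receptor for both angiopoietins. It was at 206, 62.6, 59.6, 99.1 and 249 in WT vehicle libraries and at 27.7, 28.3, 68.2, 62.3 and 116 in WT testosterone libraries. In ARNoC it was at 118, 125, 126, 214 and 26.9 with vehicle and at 53.1, 23.4, 108, 73.2 and 122 with testosterone. The groups overlapped, and ARNoC vehicle library 5 was the lowest of its group by a wide margin. The log2 change was -1.12 in WT (adjusted p 0.0998 by edgeR) and -0.67 in ARNoC (adjusted p 0.334). Tie1, the partner receptor of Tie2, gave -0.94 (adjusted p 0.0728) and -0.09 (adjusted p 0.884).

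Of 5 genes of junctions and guidance, Pecam1 and Robo4 fell in WT. Pecam1 (chromosome 11, 106654217 to 106750628) encodes the adhesion protein CD31 of endothelial borders. Its WT vehicle libraries held 311, 212, 176, 340.0 and 660.3 and its WT testosterone libraries 108, 58.9, 191, 301 and 206 normalized counts. Vehicle library 5 was well above the next highest library, and the groups overlapped. In ARNoC the values were 214, 229, 277, 295 and 110.2 with vehicle and 197, 137, 205, 197 and 221 with testosterone, so that most libraries of both groups were near each other. The fall in WT was 1.94-fold (log2 -0.95 ± 0.37, adjusted p 0.0467 by edgeR). The call was lost without WT vehicle library 1, 4 or 5 and without WT testosterone library 1, 2 or 3, with an adjusted p of up to 0.208 and a log2 of -0.57 without WT vehicle library 5.

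Robo4 (chromosome 9, 37401897 to 37415115) encodes an endothelial receptor that keeps vessels tight. Its WT vehicle libraries held 87.8, 43.9, 36.5, 81.5 and 121 and WT testosterone libraries 18.5, 10.6, 21.7, 50.5 and 38.3 normalized counts. The upper testosterone libraries, 4 and 5, reached into the lower part of the vehicle group. ARNoC libraries held 55.4, 50.03, 54.7, 37.7 and 25.9 with vehicle and 36.1, 46.8, 46.8, 40.2 and 35.6 with testosterone, with wide overlap. Robo4 fell 2.59-fold in WT (log2 -1.37 ± 0.36, adjusted p 0.00491 by edgeR), and the call held in each of 10 fits that left out 1 library of these groups (log2 -1.74 to -1.13).

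Cdh5 (chromosome 8, 104101625 to 104144511) encodes VE-cadherin, the junction protein that defines endothelium, and it was not called. In WT it was at 205, 98.8, 112, 242 and 435 normalized counts with vehicle and at 52.4, 28.3, 113, 143 and 161 with testosterone. ARNoC vehicle libraries held 135, 148, 157, 158 and 37.0 and ARNoC testosterone libraries 98.9, 77.3, 157, 132 and 135. WT vehicle library 5 stood high, ARNoC vehicle library 5 stood low, and the groups overlapped in both genotypes. The log2 change was -1.10 in WT (adjusted p 0.0575 by edgeR) and -0.07 in ARNoC (adjusted p 0.913). Esam and Cldn5, further tight junction genes, had log2 changes of -0.35 and -0.66 in WT with adjusted p of 0.241 and 0.186.

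Of 8 genes of vessel surface or secreted proteins, Eng, Egfl7 and Mmrn2 fell in WT and 0 were called in ARNoC. Eng (chromosome 2, 32646595 to 32682669) encodes endoglin, a co-receptor for TGF-beta and BMP ligands. WT vehicle libraries held 338, 294, 217, 292 and 455 normalized counts and WT testosterone libraries 192, 128, 242, 265 and 211. ARNoC libraries held 309, 281, 271, 371 and 145 with vehicle and 171, 218, 240.1, 249.6 and 265 with testosterone. WT testosterone libraries 3 and 4 lay above the lowest vehicle library, and in ARNoC vehicle library 5 lay below the whole testosterone group. Eng fell 1.52-fold in WT (log2 -0.61 ± 0.22, adjusted p 0.0379 by edgeR). The call was lost without WT vehicle library 1 or 5 and without WT testosterone library 1 or 2 (adjusted p up to 0.128). Eng shares 61 exon bases with Fpgs on the other strand, whose mean is 1657 normalized counts against 258 for Eng, so its level is uncertain.

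Egfl7 (chromosome 2, 26580014 to 26593120) encodes a protein that endothelial cells lay down in the vessel wall. WT vehicle libraries held 130.2, 112, 100.2, 153 and 218 normalized counts and WT testosterone libraries 60.1, 61.3, 66.7, 109 and 104. The overlap was small, with testosterone libraries 4 and 5 just above the lowest vehicle library. ARNoC libraries held 106, 80.4, 116, 141 and 62.0 with vehicle and 93.5, 93.7, 86.7, 86.4 and 87.8 with testosterone. Egfl7 fell 1.75-fold in WT (log2 -0.81 ± 0.23, adjusted p 0.00927 by edgeR), and the call held in each of 10 fits without 1 library. It shares 64 exon bases with Agpat2 on the other strand, at a mean of 435, so its level is uncertain too.

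Mmrn2 (chromosome 14, 34375465 to 34404287) encodes a matrix protein of the endothelium that can bind VEGF. In WT vehicle libraries it was at 109, 48.3, 34.0, 109 and 134 normalized counts and in WT testosterone libraries at 29.3, 18.9, 40.3, 58.7 and 50.8. Vehicle libraries 2 and 3 lay among the testosterone libraries. ARNoC libraries held 59.0, 62.1, 60.8, 92.1 and 24.1 with vehicle and 39.3, 22.2, 75.0, 48.0 and 74.8 with testosterone. Mmrn2 fell 2.16-fold in WT (log2 -1.11 ± 0.41, adjusted p 0.0383 by edgeR). The call was lost without WT vehicle library 1, 4 or 5 and without WT testosterone library 1, 2 or 3 (adjusted p up to 0.109).

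The other surface and secreted genes were Emcn, Plvap, Cd34, Vwf and Nos3, with log2 changes in WT between -1.29 (Cd34) and -0.91 (Emcn) and adjusted p from 0.0509 to 0.0886 by edgeR. Nos3, the endothelial nitric oxide synthase gene, went from 57.3 ± 26 to 28.0 ± 17 (log2 -0.98, adjusted p 0.0525), and it shares exon bases with Atg9b on the other strand. Cd34, a sialomucin of vessels and also of stromal progenitors, ranged from 170.1 to 1451 in WT vehicle. Ramp2 and Calcrl, which together form the adrenomedullin receptor of vessels, had log2 changes of -0.96 and -0.75 (adjusted p 0.0845 and 0.196). Ramp2 shares 1103 exon bases with Vps25 on the same strand, whose mean was 12.6 normalized counts against 51.4.

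**Figure D3:**
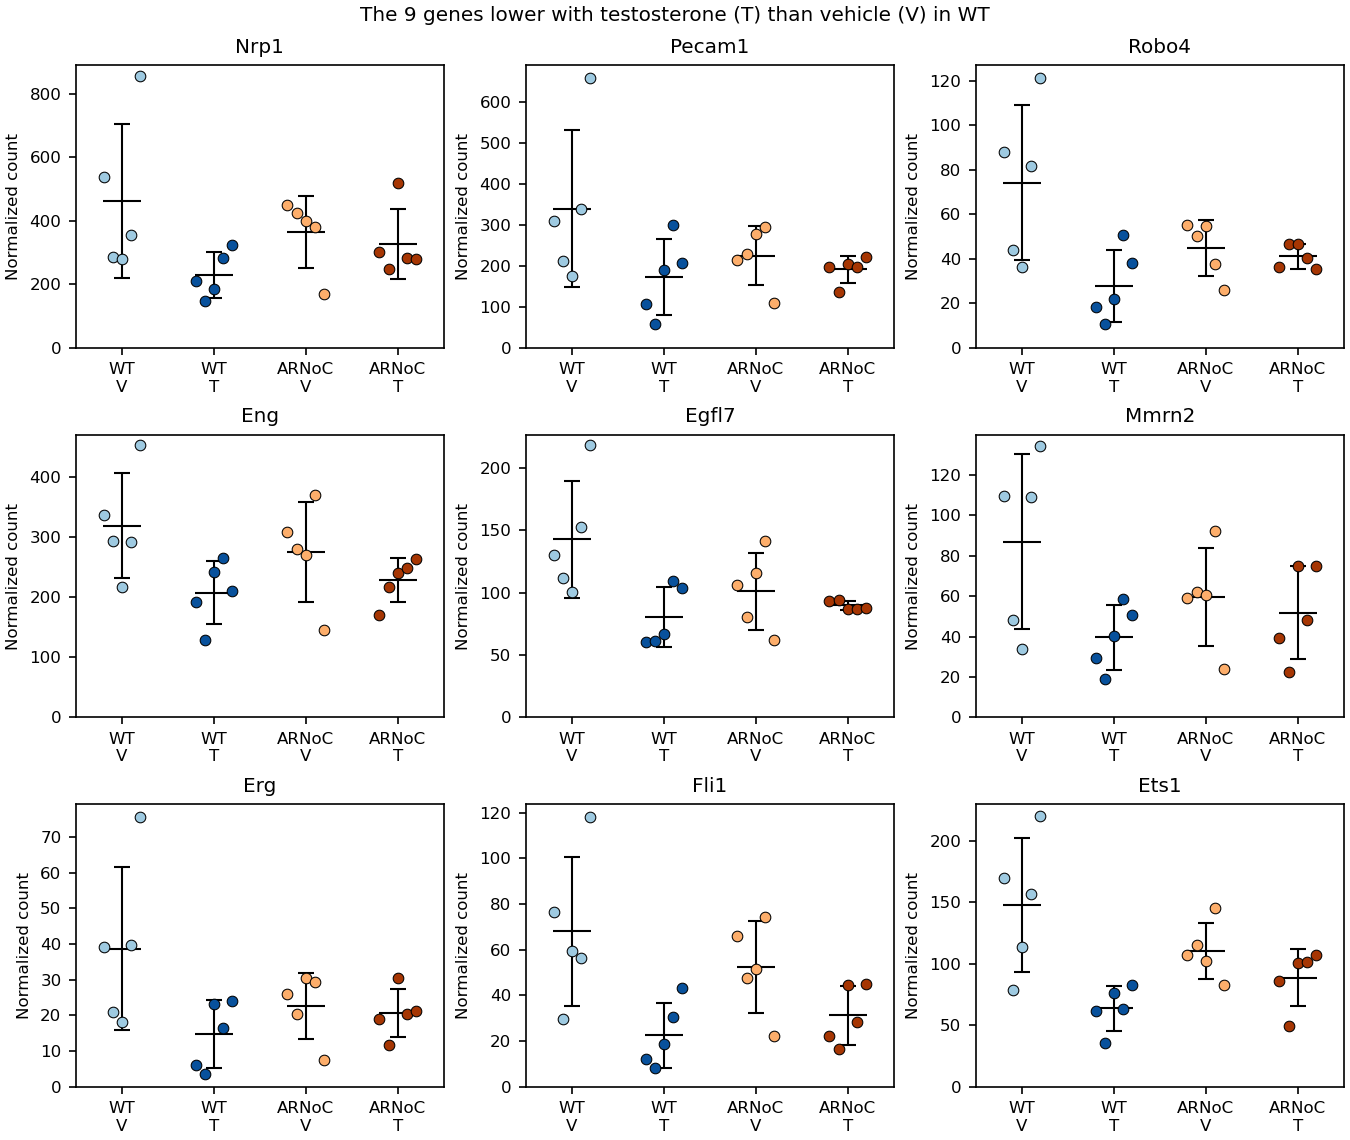
Normalized counts in each library for the 9 genes that fell in WT, with the group mean and SD (n = 5). In each panel WT testosterone libraries are low but overlap WT vehicle libraries, of which library 5 is the highest. The ARNoC groups overlap in each panel, for Eng and Fli1 only through vehicle library 5. For Nrp1 they overlap only through vehicle library 5 and testosterone library 3.

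Of 6 transcription factor genes, the ETS family members Erg, Fli1 and Ets1 fell in WT. ETS factors hold endothelial cells in their identity and act on many vessel genes. Erg (chromosome 16, 95359169 to 95586593) was at 39.3, 20.9, 18.2, 39.8 and 75.6 in WT vehicle libraries and at 6.16, 3.54, 23.3, 16.4 and 24.1 in WT testosterone libraries. Testosterone libraries 1 and 2 were far below the rest and libraries 3 and 5 reached the vehicle range. ARNoC libraries held 25.9, 20.3, 30.4, 29.3 and 7.41 with vehicle and 19.1, 11.7, 30.4, 20.4 and 21.4 with testosterone. Erg fell 2.55-fold in WT (log2 -1.35 ± 0.47, adjusted p 0.0284 by edgeR), a call lost without WT vehicle library 5 or without WT testosterone library 1 or 2 (adjusted p up to 0.114).

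Fli1 (chromosome 9, 32422204 to 32542861), which is also active in blood cells, was at 76.4, 29.6, 59.6, 56.5 and 118 in WT vehicle libraries and at 12.3, 8.25, 18.6, 30.5 and 43.3 in WT testosterone libraries. Vehicle library 2 alone lay below the upper testosterone libraries. ARNoC libraries held 66.1, 47.5, 51.7, 74.3 and 22.2 with vehicle and 22.3, 16.4, 44.5, 28.2 and 45.1 with testosterone. Fli1 fell 2.90-fold in WT (log2 -1.53 ± 0.43, adjusted p 0.00770 by edgeR), the largest called fall of the 35 genes, and in ARNoC its log2 change was -0.74 (adjusted p 0.180).

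Ets1 (chromosome 9, 32636221 to 32757820), a factor of endothelium and lymphocytes, was at 169, 79.0, 114, 157 and 220.5 in WT vehicle libraries and at 61.6, 35.4, 76.0, 63.4 and 82.4 in WT testosterone libraries. The overlap came from vehicle library 2 and testosterone library 5. ARNoC libraries held 107, 115, 103, 145 and 82.4 with vehicle and 86.1, 49.2, 101, 101 and 107 with testosterone. Ets1 fell 2.29-fold in WT (log2 -1.20 ± 0.27, adjusted p 0.00131 by edgeR). The calls of Fli1 and Ets1 held in each of 10 fits without 1 library. Sox7, Sox17 and Sox18, SOX factors of early and arterial endothelium, had log2 changes of -0.86, -0.80 and -0.93 in WT, with adjusted p from 0.0778 to 0.147.

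The lymphatic genes were not called in either response. Lyve1 (chromosome 7, 110850607 to 110863239) encodes a hyaluronan receptor of lymphatic endothelium that some macrophages also carry. It was at 289, 60.4, 22.4, 128 and 334 in WT vehicle libraries and at 29.3, 22.4, 45.0, 50.5 and 107 in WT testosterone libraries. ARNoC libraries held 145, 160.2, 138, 207 and 16.7 with vehicle and 33.0, 38.6, 333, 104 and 132 with testosterone. Single libraries within a group differed more than the groups did. The log2 change was -1.66 in WT (95% interval -3.17 to -0.15, adjusted p 0.0749 by edgeR) and -0.05 in ARNoC (-1.48 to 1.38).

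Prox1 (chromosome 1, 190118035 to 190170714), the factor that sets lymphatic identity, was low in all libraries. WT vehicle libraries held 18.6, 11.0, 9.11, 14.8 and 21.3 normalized counts and WT testosterone libraries 1.54, 0, 20.2, 2.35 and 6.66. Testosterone library 3 reached the vehicle level while library 2 had no count. ARNoC libraries held 7.19, 8.23, 9.88, 31.4 and 0.926 with vehicle and 3.19, 9.37, 7.03, 8.40 and 5.93 with testosterone. The log2 change was -1.31 in WT (-2.78 to 0.16) and -0.69 in ARNoC (-2.10 to 0.72). Among 7 tested lymphatic genes outside the list, 0 were called in WT or ARNoC, and their median log2 change in WT was -0.67.

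In ARNoC, 2 of the 35 genes were called higher, where 19.4% of tested genes were, and 0 lower, where 16.8% were. The same 2 genes, Vegfa and Angpt2, were higher without overlap, where 12.4% of all genes were. At an unadjusted p below 0.05 by edgeR the count was again these 2 genes, where 45% of all tested genes were. DESeq2 and limma-voom also called 0 of the 35 lower. A log2 below 0 was found in 25 of 35 genes, against 51% of all, and the median was -0.16, against -0.01 over all genes. That median was 0.01 without ARNoC vehicle library 4, -0.33 without ARNoC vehicle library 5 and -0.28 without ARNoC testosterone library 3. With total-count scaling 4 genes were called lower, Vegfb, Eng, Fli1 and Sox18, and 4 were called lower without WT vehicle libraries 2 and 5, WT testosterone library 2 and ARNoC vehicle library 5, namely Cd34, Eng, Fli1 and Sox18. Of all genes 49.5% and 17.3% were called lower in these fits, and with total-count scaling the median of the 35 genes was -0.51, against -0.36 over all genes.

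The test of the difference between responses, ARNoC minus WT, called 0 of the 35 genes and 0% of all tested genes, so falls called in WT are not shown to differ from ARNoC. At an unadjusted p below 0.05 by edgeR there were 2 of 35, where 8.56% of all genes were: Robo4 (log2 difference 1.25, 95% interval 0.21 to 2.30, adjusted p 0.502) and Ets1 (0.89, 0.12 to 1.66, adjusted p 0.516). DESeq2 and limma-voom also called 0 of 35. The median difference of the 35 genes was 0.75, against 0.01 over all genes. It was 0.46 without WT vehicle library 5, 0.27 without that library and WT testosterone library 2, and 0.03 with scaling to other endothelial genes. Under that scaling the median difference over all genes was -0.87.

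Between genotypes, 33 of 35 genes had a log2 below 0 (ARNoC against WT) with vehicle, where 49.7% of all genes did, and their median was -0.49. With testosterone 5 of 35 did, where 47.7% of all genes did, and the median was 0.26. The vehicle median was -0.25 without WT vehicle library 5, and the testosterone median was 0.02 without WT testosterone library 2, 0.12 without WT testosterone library 1 and 0.15 without ARNoC testosterone library 3. Without WT testosterone library 4 or 5 it was 0.42 or 0.47. With scaling to other endothelial genes the medians were -0.03 with vehicle and 0.02 with testosterone. Under that scaling the medians over all genes were 0.40 and -0.47. With vehicle, 5 of 35 genes had an unadjusted p below 0.05 by edgeR, where 7.49% of all tested genes did. Beside Angpt2 these were Vegfa, Esam, Egfl7 and Nos3, of which none passed the adjusted threshold. Vegfa was at 383 ± 74.2 in ARNoC and 505 ± 55.9 in WT (log2 -0.39 ± 0.11, adjusted p 0.210 by edgeR). The comparisons share the same libraries, so their values are not independent of each other.

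Markers of the other cells of the tissue also changed, in differing directions. The counts of all marker lists stand against all tested genes, of which 20.4% rose and 18.8% fell in WT. In ARNoC 19.4% rose and 16.8% fell. Among 22 endothelial genes outside the list, 5 fell and 1 rose in WT, with a median log2 of -0.79. The falls with the smallest adjusted p were Rasip1 (log2 -0.82), the sphingosine phosphate receptor gene S1pr1 (-1.59) and Cd93 (-1.41), and Lmo2 rose (0.25). In ARNoC 2 rose, Lmo2 (0.48) and Notch4 (0.82), and 0 fell, with a median of -0.08. The summed level of these genes was 1301 to 3314 in WT vehicle, 879 to 1862 in WT testosterone, 1021 to 1986 in ARNoC vehicle and 1502 to 2223 in ARNoC testosterone, with WT vehicle library 5 highest and WT testosterone library 2 lowest.

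Macrophage and myeloid markers fell for 14 of 14 genes in WT (median log2 -2.07; Ctss -1.92, Aif1 -2.13, Fcer1g -1.92) and for 10 of 14 in ARNoC (median -1.13). Their summed level ran from 3399 to 20282 in WT vehicle, from 1651 to 3854 in WT testosterone, from 2982 to 13297 in ARNoC vehicle and from 2867 to 5681 in ARNoC testosterone. Fibroblast markers fell for 7 of 14 in WT (median -1.63; Lum -3.00, Fn1 -2.04, Thy1 -1.65) and for 1 of 14 in ARNoC (Lum, -2.70). Their sums were 12324 to 73710, 8764 to 29970, 8943 to 63438 and 15527 to 41395 in the same order of groups. Pericyte markers gave 2 falls in WT, Ndufa4l2 (-1.45) and Rgs5 (-1.13), and 1 rise of 10, Notch3 (0.41), and in ARNoC 1 rise, Notch3 (0.43), and 0 falls.

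Smooth muscle markers rose for 1 of 10 in WT (Actg2, 0.90) and 5 of 10 in ARNoC, among them Actg2 (1.35), Cnn1 (0.96) and Des (0.78). Lymphocyte markers fell for 6 of 8 in both genotypes, with Cd3e at -1.68 in WT and -2.32 in ARNoC. Platelet genes fell for 2 of 3 in WT (Ppbp -4.26, Pf4 -2.31) and 1 of 3 in ARNoC, and 5 further platelet genes were not tested, of which Gp6 was at 0 in all libraries. Of 5 erythroid genes 1 fell in WT (Alas2, -0.52) and 0 were called in ARNoC. Luminal epithelial markers, which define the tissue, were present throughout, with a sum of 56109 to 73129 in all libraries. Hoxb13 rose (0.98 in WT and 1.08 in ARNoC) and Tmprss2 fell (-0.75 in WT and -0.69 in ARNoC). The part of these cell markers in the changes of the vessel genes was not tested.

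**Figure D4:**
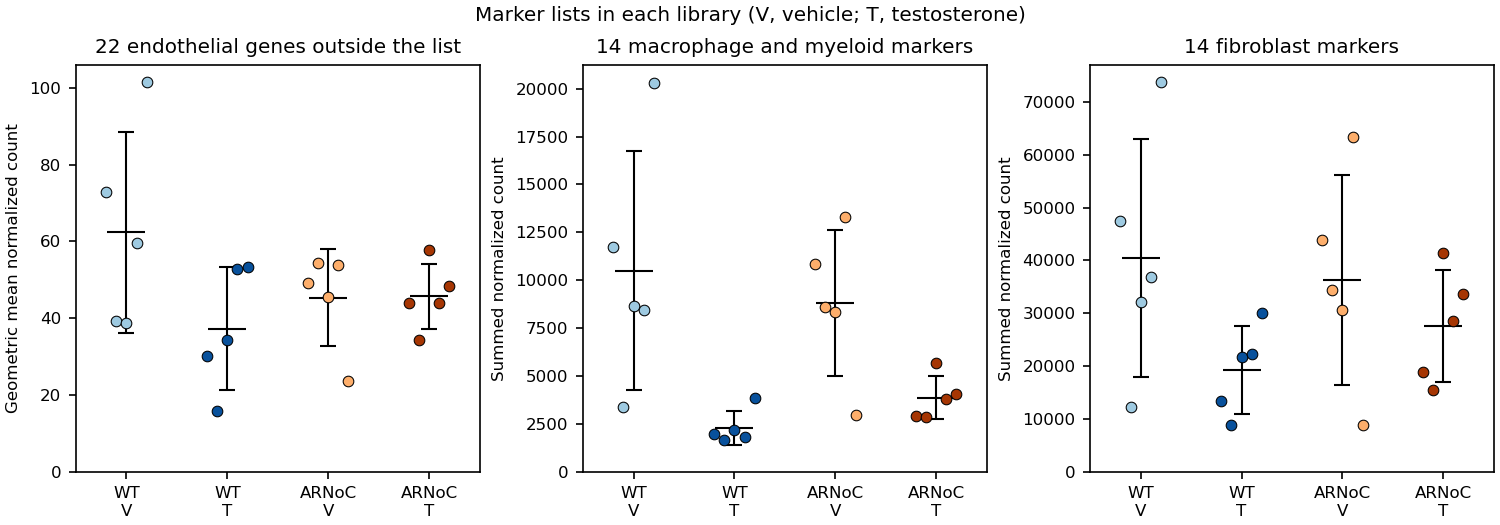
Geometric mean of 22 endothelial genes outside the list and summed normalized counts of 14 myeloid and 14 fibroblast markers, for each library, with the group mean and SD (n = 5). WT vehicle library 5 is the highest of its group in all 3 panels, and ARNoC vehicle library 5 is the lowest of its group.

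Over the 20 libraries, after each group mean was subtracted, the log2 levels of most of the 35 genes followed the mean of the 22 endothelial genes. Pearson's r was 0.96 for Cdh5, 0.93 for Pecam1, 0.92 for Cd34 and 0.91 for Flt1 and Nrp1. The lowest were Vegfa (-0.12), Vegfb (0.14), Angpt2 (0.35), Vegfc (0.41) and Angpt1 (0.42), all of them ligand genes. The next lowest was Prox1 (0.62). The same levels followed markers of other cells as well: 22 of the 35 genes had a higher r with fibroblast or pericyte markers than with the endothelial mean, among them Cd34 (0.99 with fibroblast markers), Calcrl (0.96) and Kdr (0.93). The endothelial mean itself had an r of 0.95 with pericyte, 0.90 with fibroblast, 0.79 with myeloid and -0.77 with luminal markers, and all these points share the same libraries and their depth.

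When libraries were scaled to that endothelial panel in place of all genes, Vegfa and Angpt2 stayed higher and the 9 falls were not called. Under this scaling all changes are relative to the 22 genes, and the median of all genes moved from -0.02 to 0.74 in WT and from -0.01 to -0.13 in ARNoC. In WT 2 of 35 genes were called higher, where 28.6% of all genes were, and 0 lower, where 2.47% were. The median of the 35 genes was -0.20. Of the 9 genes, Fli1 was at -0.93 (adjusted p 0.0506 by edgeR), Robo4 at -0.72 (0.0991) and Erg at -0.66 (0.171). Ets1, Mmrn2, Pecam1, Nrp1 and Egfl7 lay between -0.45 and -0.07. Eng stood at 0.12 (adjusted p 0.745 by edgeR), on the other side of 0 from its main value, and Vegfb, Angpt1 and Esam at 0.68, 0.69 and 0.45. In ARNoC 2 of 35 were called higher, where 2.98% of all genes were, and the median was -0.18.

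Relative to the panel, Vegfa had a log2 change of 1.88 in WT and 1.19 in ARNoC, and Angpt2 of 2.09 and 1.30. The log2 ratio of Angpt2 to the panel ranged from 0.30 to 1.45 in WT vehicle and from 2.28 to 3.95 in WT testosterone, and from 0.01 to 0.63 and from 0.77 to 1.81 in the ARNoC groups, without overlap within a genotype. For Vegfa the WT ranges were 2.43 to 3.77 and 4.29 to 5.94, without overlap, and the ARNoC ranges 2.33 to 4.14 and 4.01 to 4.82, which overlapped. Between genotypes Angpt2 was lower in ARNoC with testosterone (log2 -1.56, adjusted p 0.0267 by edgeR), where 0.269% of all genes were called lower. With vehicle its log2 was -0.77 and not called (adjusted p 0.566). With scaling to total counts, in contrast, 31 of 35 genes were called lower in WT, where 59.8% of all genes were, and the median of all genes was -0.44.

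**Figure D5:**
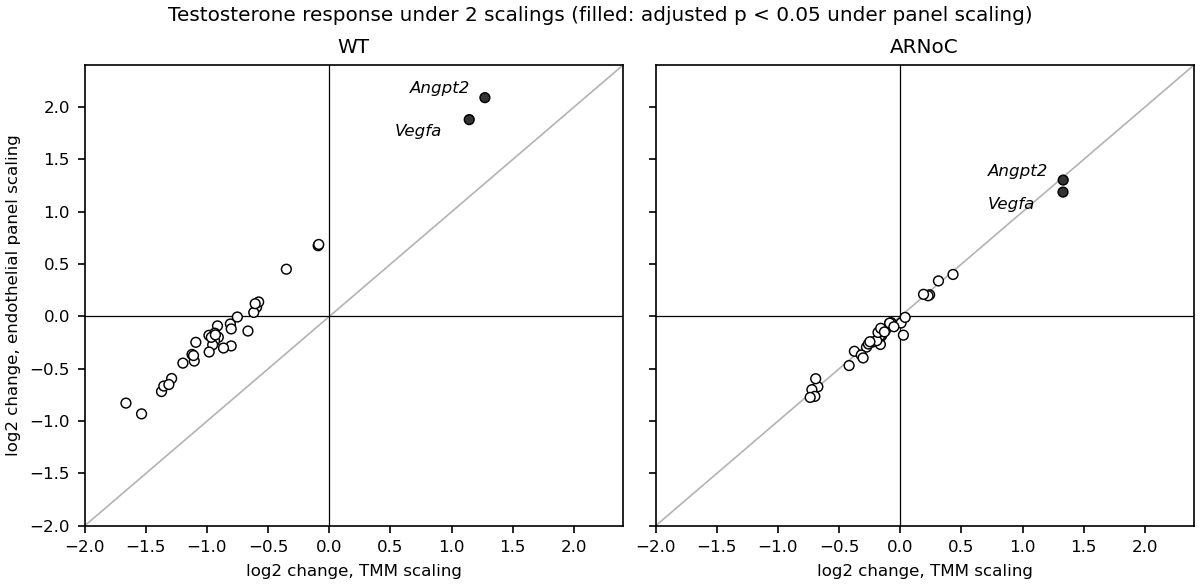
Log2 change with testosterone of the 35 genes under TMM scaling (x axis) and under scaling to 22 other endothelial genes (y axis), in WT and ARNoC, with the line of equal values; filled points are called under the panel scaling. In WT the points sit above the line, and Vegfa and Angpt2 remain apart from the other genes in both genotypes.

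Other genes of the same pathways, listed by role, moved in both directions. The counts of these lists stand against all tested genes, of which 20.4% rose and 18.8% fell in WT. In ARNoC 19.4% rose and 16.8% fell. Of 22 tested genes of VEGF and angiopoietin signalling outside the list, 4 rose and 6 fell in WT (median log2 -0.28), and 3 rose and 3 fell in ARNoC (-0.22). Angpt4, a further Tie2 ligand gene, rose from 10.6 ± 7.63 to 33.8 ± 13.2 in WT (log2 1.70, adjusted p 0.00794 by edgeR) and from 6.35 ± 2.70 to 40.9 ± 18.6 in ARNoC (log2 2.66, adjusted p 0.000220), without overlap of the groups. Ptk2, the focal adhesion kinase gene, rose by a log2 of 0.55 in WT and 0.42 in ARNoC, and Rcan1, a calcineurin inhibitor induced by VEGF signalling, by 0.27 and 0.42. Among the falls were Shc2 (-1.74), Src (-0.24) and Grb10 (-1.85) in WT, and Src (-0.34), Nrarp (-0.93) and Sh2d2a (-1.65) in ARNoC.

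Of 19 tested arterial, venous and flow genes, 0 rose and 8 fell in WT (median log2 -0.62), and 2 rose and 3 fell in ARNoC (-0.22). Efnb2, the ephrin ligand of arteries that epithelium can also make, fell from 368 ± 98.1 to 100 ± 29.4 in WT (log2 -1.86, adjusted p 0.000141 by edgeR) and from 339 ± 230 to 64.5 ± 12.8 in ARNoC (log2 -2.37, adjusted p 1.29e-05). The Notch ligand gene Jag1 fell by 0.72 on the log2 scale in WT and by 0.54 in ARNoC, and the adhesion gene Icam1 by 1.52 and 0.91. The arterial gap junction gene Gja4 rose in ARNoC from 13.8 ± 6.25 to 39.3 ± 7.32 (log2 1.51), and so did the Notch target Hey1 (1.08).

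Of 24 tested regulators of angiogenesis, 1 rose and 11 fell in WT (median log2 -0.93) and 1 rose and 4 fell in ARNoC (-0.49). Sema3a, a semaphorin that acts through Nrp1, rose in WT (log2 0.97) and ARNoC (1.13). The chemokine receptor gene Cxcr4 fell from 93.3 ± 19.3 to 39.6 ± 10.9 in WT (log2 -1.23) and from 61.3 ± 6.14 to 23.0 ± 2.74 in ARNoC (-1.39). Edn1, the vessel-narrowing endothelin 1 gene, and the pericyte-recruiting ligand gene Pdgfb fell in WT (both -1.13), and Sema3f (-0.57) and Fgf1 (-0.33) fell in ARNoC. Edn1 was higher in ARNoC than in WT with testosterone (log2 1.11, adjusted p 0.00888 by edgeR).

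Of 19 tested genes of the hypoxia response, which can raise Vegfa, 7 rose and 1 fell in WT (median log2 0.11). In ARNoC 7 rose and 0 fell (0.24). Of all tested genes 20.4% rose and 18.8% fell in WT, and 19.4% rose and 16.8% fell in ARNoC. The part of these genes in the rise of Vegfa was not tested. Pgk1, a glycolytic enzyme gene, rose from 261 ± 43.8 to 592 ± 91.7 in WT (log2 1.19) and from 225 ± 21 to 549 ± 142 in ARNoC (1.29). The hexokinase gene Hk2 rose by a log2 of 0.72 and 0.76, and the mitochondrial gene Higd1a by 0.89 and 0.90. Ndrg1 fell in WT (-0.90). Pdk1, which limits entry of pyruvate into mitochondria, was lower in ARNoC than in WT with testosterone (-0.44, adjusted p 0.00571 by edgeR).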

How the data were processed

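Total RNA of snap-frozen mouse ventral prostate was sequenced from Illumina TruSeq libraries, per the labels. The authors deposited raw read counts per gene symbol, and per the submitters' processing notes FastQC 0.11.7, HISAT2, SAMtools 1.5, HTSeq and DESeq2 were used with build mm10. The gene annotation is not given in the sources used here, and neither are strand setting and read filters. As signal values the authors deposited normalized counts, meaning counts over library size factors, and the deposited ratio values are those size factors. Multiplying the last 2 gave back the counts within 4.2e-09. All sample columns matched a label, and labels pair no libraries.

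A gene was tested if 5 or more of the 20 libraries had 10 or more normalized counts of it, which held for 15261 genes, with edgeR 4.0.16 in R 4.3.3: TMM scaling, 1 mean per group, the quasi-likelihood F-test and Benjamini-Hochberg adjustment at 0.05. Intervals are 95% and levels shown are the deposited normalized counts. Total counts ran from 8861646 to 21600352 per library. In all 40 replicate pairs libraries differed by more than sampling noise (chi-square per degree of freedom 7.97 to 42.7). On simulated data with changes in the WT response, 88% of 100 genes with a log2 change of 1 and 100% of 100 with 2 were recovered among 15261 genes. The simulation gave all genes the same spread and changed no gene of low level. These shares therefore do not apply to genes that spread more or have low counts, and a gene that was not called is not shown to be unchanged. Alternatives were other scalings and filters, DESeq2 1.42.0, limma-voom and limma-trend (limma 3.58.1, pseudocounts 1 and 5), the compared groups alone, and fits without libraries. 2 further sets of left-out libraries were chosen after seeing the data.

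The 35 genes, 14 lists of other genes and most settings were chosen with earlier results of these data known. Described singly were genes called with at least a 1.5-fold change in a response or called between genotypes, and Vegfa, Kdr, Flt1, Pecam1, Cdh5, Tek, Angpt2, Lyve1 and Prox1. From each list up to 3 called genes with the smallest adjusted p in each direction were named. Of the list genes 198 matched by symbol, 7 by synonym and 1 not. Coordinates and exon lengths are those of GENCODE M21 on mm10, and promoter sequences those of RefSeq on GRCm38.p6. Figures were drawn with matplotlib 3.10.9.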

Additional observations from a re-analysis of the deposited data

Results flagged for a closer look

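Of 140 sets of 5 libraries (35 genes in 4 groups), 5 had a highest or lowest library that stood apart from the other 4 by more than 0.71 of the range of its group. Chance alone gives about 1 in 20 such sets. Nrp1 was at 168.5 normalized counts in ARNoC vehicle library 5 against 379.7 to 451 in the others of that group, and at 520 in ARNoC testosterone library 3 against 248 to 302. Cdh5 was at 37.04 in ARNoC vehicle library 5 against 135 to 158. Pecam1 was at 137 in ARNoC testosterone library 2 against 197 to 221. Emcn was at 21.22 in WT testosterone library 2 against 45.8 to 55.7. ARNoC vehicle library 5 and WT testosterone library 2 also had the lowest endothelial panel mean of their groups, 23.7 and 15.8 normalized counts, and the part of that in the values was not tested.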

How the results depend on the processing

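Vegfa and Angpt2 were called higher in both genotypes under every alternative run, and Angpt2 was called lower in ARNoC with testosterone under each. Among the 35 genes, the 11 calls in WT became 33 with total-count scaling, 2 with endothelial panel scaling, 26 without WT vehicle library 2 and ARNoC vehicle library 5, 4 without WT vehicle library 5 and WT testosterone library 2, and 5 without all 4 of these libraries. Leaving out single libraries gave 6 to 20. The 2 calls in ARNoC became 6 with total-count scaling and 6 without the 4 libraries. The 1 call between genotypes with vehicle became 0 with panel scaling, with the vehicle groups fitted alone, and without the 4 libraries. Over all genes, total-count scaling called 10219 in WT, 8726 in ARNoC, 437 between genotypes with testosterone and 2 in the interaction, against 5985, 5527, 258 and 0. DESeq2 called 137 between genotypes with vehicle, 498 with testosterone and 29 in the interaction. The vehicle comparison, 49 genes in the main fit, gave 19 with the groups alone, 27 without the 4 libraries and 29 to 71 without single libraries, and the testosterone comparison 154 to 258. The interaction gave 2 with no filter, 1 with limma-trend at a pseudocount of 1, 1 without WT vehicle library 5 and WT testosterone library 2, 1 without the 4 libraries, and 0 to 2 without single libraries. Eng in WT changed sign under panel scaling (log2 0.12). The cause was not tested, beyond fewer libraries in fits that left some out. Of single-gene results in WT, 79 gained and 49 lost a call over all alternatives, and 8 changed sign with no call. Low counts limit Prox1. No paired analysis was possible because the labels give no replicate numbers that pair libraries.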
